A study of Mus musculus with 2 samples.

Results

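The Mir379 to Mir410 cluster is the distal miRNA cluster of the imprinted Dlk1-Dio3 domain on mouse chromosome 12. Its members here were chosen by position alone. They are all 38 of the 1973 listed miRNA genes in the stretch that opens just before Mir379 and closes just past Mir3072, which lies beyond Mir410, and they occupy 109709060 to 109747960 of mm10. Small RNA had been sequenced from limb of B6NCrl mouse embryos at embryonic day 11.5, in 2 libraries of 1 group, with no second tissue, age or treatment. Replicate 1 pooled limbs of 109 embryos and replicate 2 of 88, each of both sexes and healthy, and both carry the same donor identifier. Every p-value therefore sets these 2 libraries against each other, beyond counting error, and compares no condition. A library pools many embryos and all cells of the limb, so fewer expressing cells and less RNA per cell cannot be told apart.

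A miRNA is cut from a hairpin in a longer transcript, by Drosha in the nucleus and then by Dicer in the cytoplasm. Either arm of the hairpin can be loaded into an Argonaute protein, where bases 2 to 8, the seed, pair with messenger RNAs that are then repressed. The Mir379 to Mir410 cluster is made as long noncoding RNA from the maternal chromosome, one part of which is annotated as Mirg. It is known from the brain, the embryo and the placenta, is found in placental mammals, and its loss in mice disturbs metabolism after birth and behaviour.

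The files count reads per hairpin and do not say which arm a read came from. RefSeq (GRCm38.p6) gave mature sequences for 37 of the 38 members, 69 arms in all, between 19 and 25 bases long. The seed is in capitals in each sequence. The first set shows, in genomic order, 1 arm of each of the 10 hairpins with the most counts and of Mir380, the last because the 4 hairpins at the 5′ end of the cluster have alike 3′ arms.
miR-379-3p: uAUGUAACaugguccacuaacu
miR-411-3p: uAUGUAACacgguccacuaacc
miR-299a-3p: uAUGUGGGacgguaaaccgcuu
miR-380-3p: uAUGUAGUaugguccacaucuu
miR-376a-3p: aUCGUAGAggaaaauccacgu
miR-381-3p: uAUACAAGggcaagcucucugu
miR-487b-5p: uGGUUAUCccuguccucuucg
miR-382-5p: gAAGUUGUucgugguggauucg
miR-541-5p: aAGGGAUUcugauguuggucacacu
miR-409-3p: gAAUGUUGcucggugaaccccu
miR-369-3p: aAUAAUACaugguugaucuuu

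RefSeq gave only 1 arm for Mir376c, Mir487b, Mir539, Mir485 and Mir453, so the seed of any other arm of these was not compared. Among the arms given, seeds were mostly not shared inside the cluster: the 69 arms carried 64 distinct seeds, and 5 seeds occurred in more than 1 member. The pair miR-379-3p and miR-411-3p, printed above, is one of these 5. The other 4 pairs are shown next, because they allow the level of hairpins with the same seed to be compared.
miR-379-5p: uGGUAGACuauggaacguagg
miR-1193-5p: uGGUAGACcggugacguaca
miR-494-5p: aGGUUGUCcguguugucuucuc
miR-410-5p: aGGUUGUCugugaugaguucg
miR-453: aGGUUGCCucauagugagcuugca
miR-496a-5p: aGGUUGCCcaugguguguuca
miR-1197-5p: cGGUUGACcaugguguguacg
miR-758-5p: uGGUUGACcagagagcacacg

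The cluster held 4.10% of all miRNA counts in replicate 1 and 4.48% in replicate 2 (mean 4.29% ± 0.27, SD, n = 2). Wilson 95% intervals were 4.08 to 4.13% and 4.46 to 4.50%, so the shares differed by more than counting error. Total counts over both strand columns were 3018770 and 3539190, and levels are given as CPM, counts scaled to that total (1 CPM is 1 count in 1000000). A miRNA read covers the mature molecule, so counts were not divided by hairpin length. Detection meant 10 CPM or more in both libraries, and 34 of the 38 members reached it. Of these, 13 stood at a mean of 1000 CPM or more, 16 between 100 and 1000 CPM and 5 between 10 and 100 CPM. Each listed gene gives an own-strand and an opposite-strand feature. Of all 3946 such features, 301 were detected, 100 of these at 1000 CPM or more, and 3177 had 0 counts in both libraries.

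The members Mir299a, Mir380, Mir376a and Mir409 were read from the opposite-strand column. Each lies on the plus strand across from a listed minus-strand gene, in that order Mir299b, Gm25750, Gm25252 and Gm24321. Together these 4 held 24.9% of the cluster's counts in replicate 1 and 25.6% in replicate 2. They also made up 47.0% and 50.8% of everything in the opposite-strand column of the whole series. Over the 34 members with a plus-strand entry that column held 0 counts in both libraries. Mir376b, annotated between Mir654 and Mir376a, was not analysed here.

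Mir411, Mir409 and Mir487b led the cluster. The CPM of Mir411 was 5614 in replicate 1 and 5964 in replicate 2, a mean of 5789 ± 248 CPM (SD, n = 2, as for all means of levels). Mir409 had 4833 and 5890 CPM, a mean of 5362 ± 747 CPM. Mir487b had 5101 and 5487 CPM, a mean of 5294 ± 273 CPM. Mir411 was first in both libraries, while Mir487b came before Mir409 in replicate 1 and after it in replicate 2, so the order of these 2 is within their spread. The 3 hairpins held 37.9% of the cluster's counts in replicate 1 and 38.7% in replicate 2. They lie far apart, at 109710175 to 109710256 for Mir411, 109727333 to 109727414 for Mir487b and 109743158 to 109743236 for Mir409, the last in an intron of Mirg.

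The next 3 hairpins were Mir541, Mir379 and Mir376a. Mir541 had 3104 CPM in the first library and 3823 CPM in the second. Mir379, the first hairpin of the cluster, had 3201 and 3376 CPM. Mir376a, of a family known for adenosine-to-inosine editing of its precursors in brain, had 2866 and 2893 CPM. Mir541 ranked below Mir379 in replicate 1 and above it in replicate 2. With these the leading 6 hairpins reached 60.2% and 61.2% of the cluster.

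Mir382 followed with 2453 and 2632 CPM in the libraries in turn, and Mir369 with 2322 and 2492 CPM. For Mir381 the values were 1793 and 1854 CPM, and for Mir299a 1534 and 1573 CPM. None of these 4 changed places between the libraries. Mir154 had 1107 and 1167 CPM, Mir1193 had 1032 and 1158 CPM, and Mir380 had 993 and 1128 CPM. The leading 12 held 85.2% and 85.5% of the cluster's counts with the other members sharing the rest.

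Mir134, studied in neurons as a repressor of the spine regulator Limk1, had 887 and 988 CPM in the libraries in turn. Below it, Mir323 had 734 and 788 CPM, Mir494 had 598 and 610 CPM, and Mir300 had 564 and 576 CPM. Mir376c, Mir543, Mir679 and Mir329 had means between 319 CPM (Mir376c) and 211 CPM (Mir329). Mir410, the hairpin that gives the cluster its other end, had 168 and 146 CPM, one of few members that were lower in replicate 2. It stood in a group with Mir667, Mir485, Mir412, Mir377, Mir495, Mir496a and Mir539, whose means ran from 160 CPM for Mir667 to 101 CPM for Mir539. The 5 detected members under 100 CPM were Mir758 at 91.1, Mir666 at 61.2, Mir3072 at 58.8, Mir668 at 30.6 and Mir1197 at 13.2 CPM. The highest detected member thus stood 439-fold above the lowest in mean CPM.

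The 4 members below detection were Mir544, Gm27379, Mir654 and Mir453. Mir544 had 7 counts in each library, or 2.32 and 1.98 CPM. Gm27379 had 2 counts in replicate 1 and 0 in replicate 2. Mir654 and Mir453 had 0 counts in both. A count of 0 allows up to 0.994 CPM in replicate 1 and 0.848 CPM in replicate 2, taken as 3 counts of the total and covering counting error only.

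**Figure D1:**
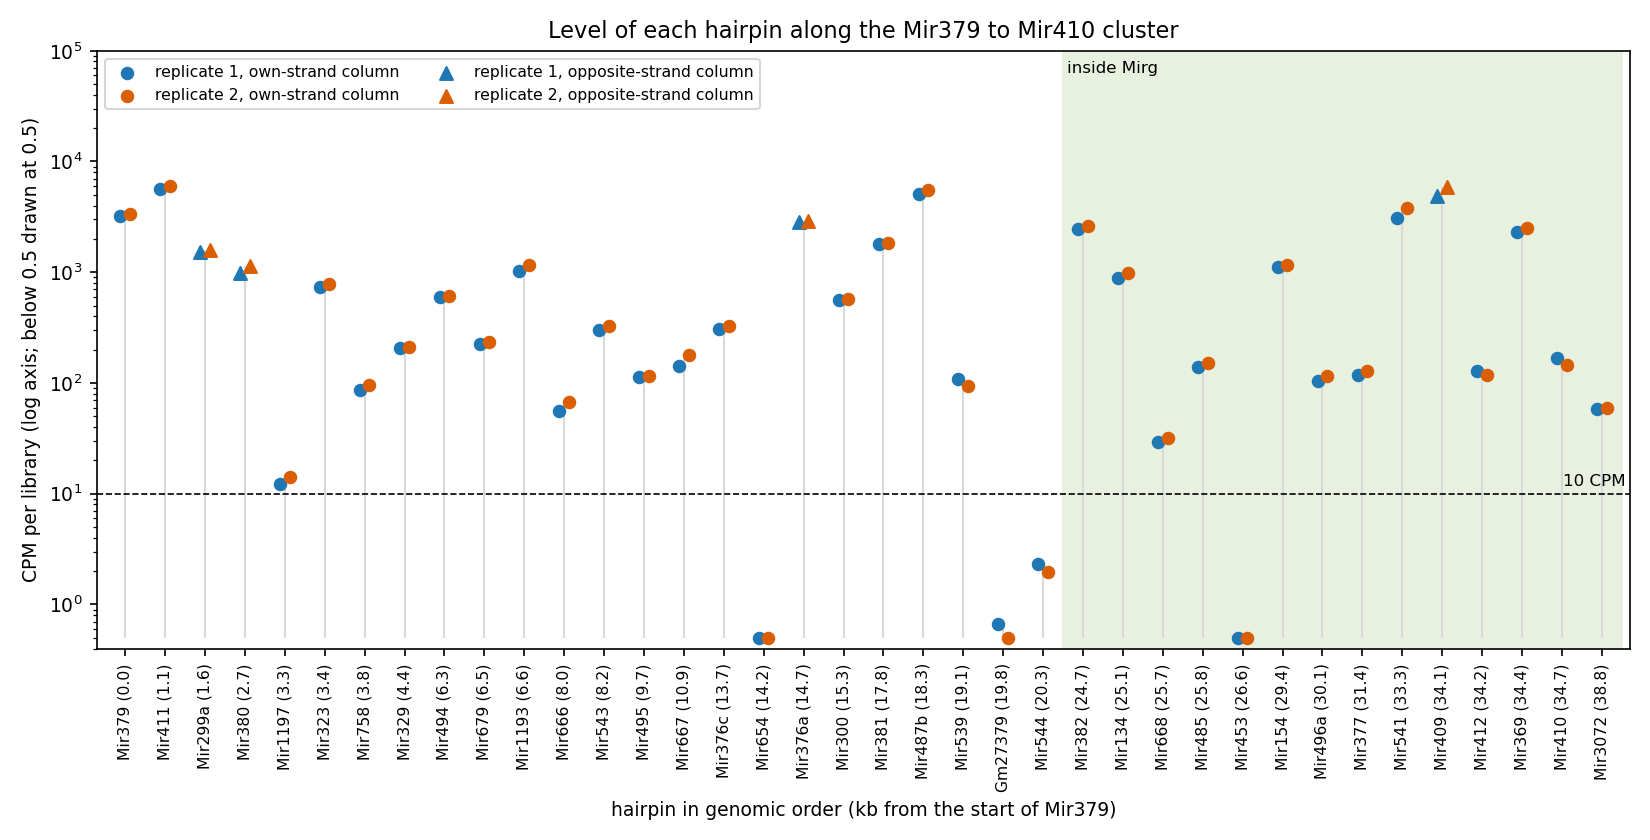
CPM of each of the 38 members on a log axis, in genomic order, with 1 point per library; triangles mark the 4 members read from the opposite-strand column and the shaded part lies inside Mirg. Mir411, Mir487b and Mir409 stand at the top in separate stretches, Mir1197 at 13.2 CPM is the lowest detected member, and the points of the 2 libraries lie close together beside the distances between members.

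Level did not follow place in the cluster. The 38 hairpins span 38901 bases, with gaps between neighbours of 20 to 4368 bases and a median gap of 590. Across the 34 detected members, log2 CPM and start position had Spearman's rho of -0.11 and Pearson's r of -0.04. These points share libraries and 1 locus, so the values describe them and carry no p. Neighbouring detected hairpins differed by a median of 2.25 log2 units in CPM, and all pairs of detected members by 2.41. Neighbours were thus nearly as unlike in level as any 2 members.

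The steepest step was from Mir380 down to Mir1197, 453 bases away, at -6.33 ± 0.01 log2 units of CPM. From Mir1197 to Mir323, 71 bases further on, the level rose by 5.85 ± 0.07 log2 units. Mir487b and Mir539, 714 bases apart, differed by -5.71 ± 0.22 log2 units. Down, up and down again, the level thus turned at each of these places. Mir409 and Mir412 are separated by 52 bases, and the step from the first to the second was -5.44 ± 0.30 log2 units. Mir369, 49 bases beyond Mir412, stood 4.29 ± 0.17 log2 units above it. From Mir369 to Mir410, across a gap of 218 bases, the step was -3.94 ± 0.21 log2 units. Each of these steps was many times the spread between the libraries, and hairpins of high and low level alternate over short distances. A bias of ligation or amplification tied to sequence and common to both libraries would not show in that spread and was not tested.

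Short stretches of high level did occur. Mir379, Mir411, Mir299a and Mir380, the first 4 hairpins, held 27.6% of the cluster's counts in replicate 1 and 26.9% in replicate 2, with a median of 2421 CPM. The 12 hairpins from Mir1197 to Mir376c, all detected, held 9.29% and 9.22%, with a median of 221 CPM. Mir376a, Mir300, Mir381 and Mir487b held 25.2% and 24.1%. Near the 3′ end, Mir541, Mir409, Mir412 and Mir369 held 25.3% and 27.5%. The limits of these stretches were drawn after the levels were seen.

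The annotated Mirg gene, at 109729764 to 109749460 of mm10, contains 14 of the members, 9 overlapping its exons and 5 in its introns in GENCODE M21. These 14 held 37.6% of the cluster's counts in replicate 1 and 39.6% in replicate 2. The 9 exonic hairpins, all detected, had a median of 144 CPM and held 15.4% and 15.1%. Of the 5 intronic ones 4 were detected, Mir154, Mir496a, Mir541 and Mir409, with a median of 2300 CPM and 22.3% and 24.5% of the cluster. The 24 members outside Mirg had a median of 570 CPM over the 21 detected. With 4 intronic hairpins these medians are a description.

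Hairpin features went only weakly with level. GC content over the detected members ran from 29.1% (Mir376c) to 72.3% (Mir3072), with a median of 43.4%, and had Spearman's rho of -0.26 with log2 CPM. Hairpin length, from 61 to 121 bases, had a rho of -0.11. The predicted folding energy per base, from -0.67 kcal/mol for Mir299a to -0.24 for Mir376a, had a rho of 0.16. All 3 are over 34 members of 1 locus and are given without a p.

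The same seed did not bring the same level. Mir411 stood 1.76-fold above Mir379 in CPM, whose 3′ arms share the seed AUGUAAC, at log2 ratios of Mir379 over Mir411 of -0.81 in replicate 1 and -0.82 in replicate 2. Both hairpins together held 8816 and 9341 CPM, 21.5% and 20.8% of the cluster, the largest sum among the 5 shared seeds. Mir379 stood 3.01-fold above Mir1193, whose 5′ arm has its seed GGUAGAC, and this pair reached 4233 and 4534 CPM. Mir494 was 3.86-fold above Mir410, which shares its 5′ seed GGUUGUC. Mir758 was 6.91-fold above Mir1197, with the 5′ seed GGUUGAC. Mir496a had 105 and 116 CPM, while Mir453, which holds the same seed GGUUGCC, had 0 counts. All 4 folds kept their direction in both libraries. Counts are per hairpin, so none of these sums is the level of a seed.

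**Figure D2:**
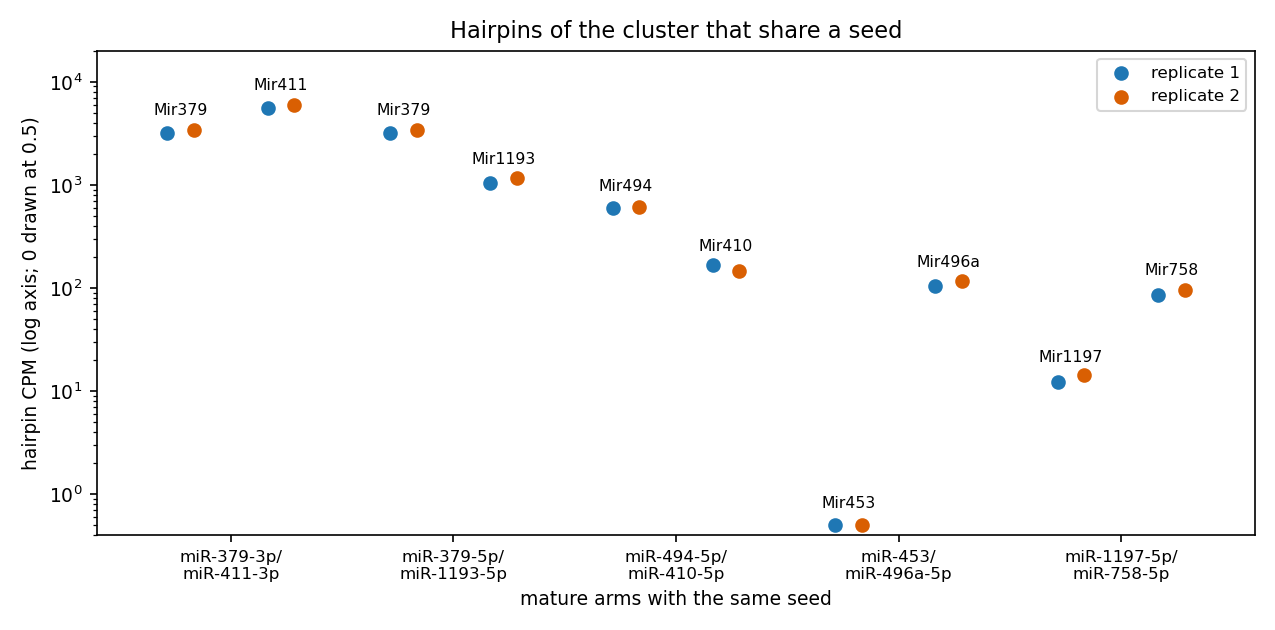
CPM on a log axis of the hairpins whose named arms have the same seed, with 1 point per library and 0 drawn at 0.5. Mir379 and Mir411 lie closest together, at 1.76-fold, and Mir453 has no counts beside Mir496a at 105 and 116 CPM.

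Beyond the full seed, the 3′ arms of Mir379, Mir411, Mir299a and Mir380, 4 hairpins in a row, all begin with UAUGU, and so does that of Mir654. These are 5 of the 69 arms of the cluster (7.25%), against 5 of the 1669 other mouse arms in the RefSeq table (0.300%). The sequence was chosen after the arms had been read and was searched at their first base only. Hairpins with this start held 27.6% and 26.9% of the cluster's counts, all from the first 4, because Mir654 had 0. That is the share already given for those hairpins. Of all 69 arms, 43.5% begin with U, against 41.3% of the 1738 mouse arms in the table. None of these 69 arms was found whole in an annotated hairpin elsewhere. Hairpins that overlap the member itself were left out of that search. Among these is Gm44322, annotated at 109728108 to 109728222 around Mir539 and without an entry in the counts. Mir411 shares a stretch of 20 bases with Mir758, and Mir376c and Mir487b each share one with Mir376b, so reads inside those stretches can fit more than 1 place. What this did to the counts was not tested.

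The 2 sides of the Mir299a hairpin pair exactly over 21 bases. Both are in capitals below, shown because each is the reverse complement of the other and a read inside them fits both strands of the locus.
Mir299a: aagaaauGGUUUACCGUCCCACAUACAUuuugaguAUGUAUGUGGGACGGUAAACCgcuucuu
How the authors' counting treated such reads of Mir299a and Mir299b was not tested. Nowhere else in the cluster did such a stretch exceed 14 bases (Mir539).

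Of the 64 seeds, 12 were also found in an arm of a gene that is no member. For miR-376c-5p that gene was Mir376b, inside the cluster, and for miR-299a-3p it was Mir299b, on the other strand of Mir299a. The seed ACACACC of miR-329-3p is also that of miR-362-3p, and Mir362 had 207 and 248 CPM beside 209 and 213 CPM for Mir329. The seed of miR-1193-3p, AGGUCAC, is that of miR-370-5p, from the neighbouring proximal part of the same imprinted domain, and Mir370 had 506 and 548 CPM. miR-377-5p has the seed of miR-672-5p, and Mir672 had 95.7 and 105 CPM beside 118 and 129 CPM for Mir377. miR-412-3p has the seed of miR-1983, and Mir1983 had 5878 and 5936 CPM beside 129 and 117 CPM for Mir412. The 4 Mir344 genes with the seed of miR-410-3p had 0 counts in both libraries.

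Most members were slightly higher in replicate 2. The libraries were compared feature by feature with a two-sided exact binomial test on sizes scaled by TMM, with Benjamini-Hochberg adjustment over 440 features with 10 or more counts. It called 11 of 35 tested members, or 31.4%, against 20% of all features tested. All 11 were higher in replicate 2, where the background was 10%, and 0 of the 35 were called lower, where it was also 10%. At an unadjusted p under 0.05 the same test gave 13 members higher, where 15.2% of all features passed, and 1, Mir410, lower, where 13.9% did. Log2 ratios of replicate 2 over replicate 1 had a median of 0.10 over the 35 members and 0.01 over all 440 features, and 31 of the 35 were above 0. The test covers counting error only, and deeply counted features pass it more often: with a minimum of 100 counts it called 12 of 33 members (36.4%) and 32.9% of all features. All 12 were higher in replicate 2, where the background was 17.3%, and 0 were lower, where it was 15.6%.

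Mir409 and Mir541, neighbours 659 bases apart, differed most beyond counting error. Mir409 rose from 14590 counts (4833 CPM) to 20846 counts (5890 CPM), a log2 ratio of 0.28 with a counting SE of 0.02 (exact binomial test, adjusted p = 4.60e-73). Mir541 rose from 9370 counts (3104 CPM) to 13531 counts (3823 CPM), a log2 ratio of 0.30 with a counting SE of 0.02 (exact binomial test, adjusted p = 1.39e-52). Their own ratio hardly moved: Mir409 stood 0.64 log2 units above Mir541 in replicate 1 and 0.62 in replicate 2. Other hairpins close to them did not share this ratio, with Mir369 at 0.10, Mir412 at -0.14 and Mir410 at -0.20, the last 2 not called. The summed counts of the cluster were 1.09-fold higher in replicate 2, and 1.06-fold without Mir409 and Mir541.

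The other 9 called members rose by 1.05-fold (Mir379) to 1.25-fold (Mir667). Mir667 had the highest log2 ratio of any tested member, 0.33 with a counting SE of 0.09, on 429 and 631 counts. Mir380 had a log2 ratio of 0.18, Mir1193 of 0.16 and Mir134 of 0.15. For Mir487b, Mir382 and Mir369 the ratio was 0.10 each, for Mir411 0.09 and for Mir379 0.08. Mir376a, with 8652 and 10239 counts, had a ratio of 0.01 and was not called, and neither were Mir381 at 0.05 and Mir299a at 0.03. The members below 0 were Mir539 at -0.21, Mir544 at -0.23, Mir410 and Mir412, none of which passed.

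A test that widens counting error by the spread of all features kept fewer of these calls. With the median squared deviation it called 6 members higher, Mir409, Mir541, Mir411, Mir487b, Mir380 and Mir1193, against a background of 6.14% (11.1% in either direction). With the mean squared deviation it called only Mir409 and Mir541 among members, against 1.59% (3.18% in either direction). It called 0 members lower in either form, where the backgrounds were 5% and 1.59%.

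**Figure D3:**
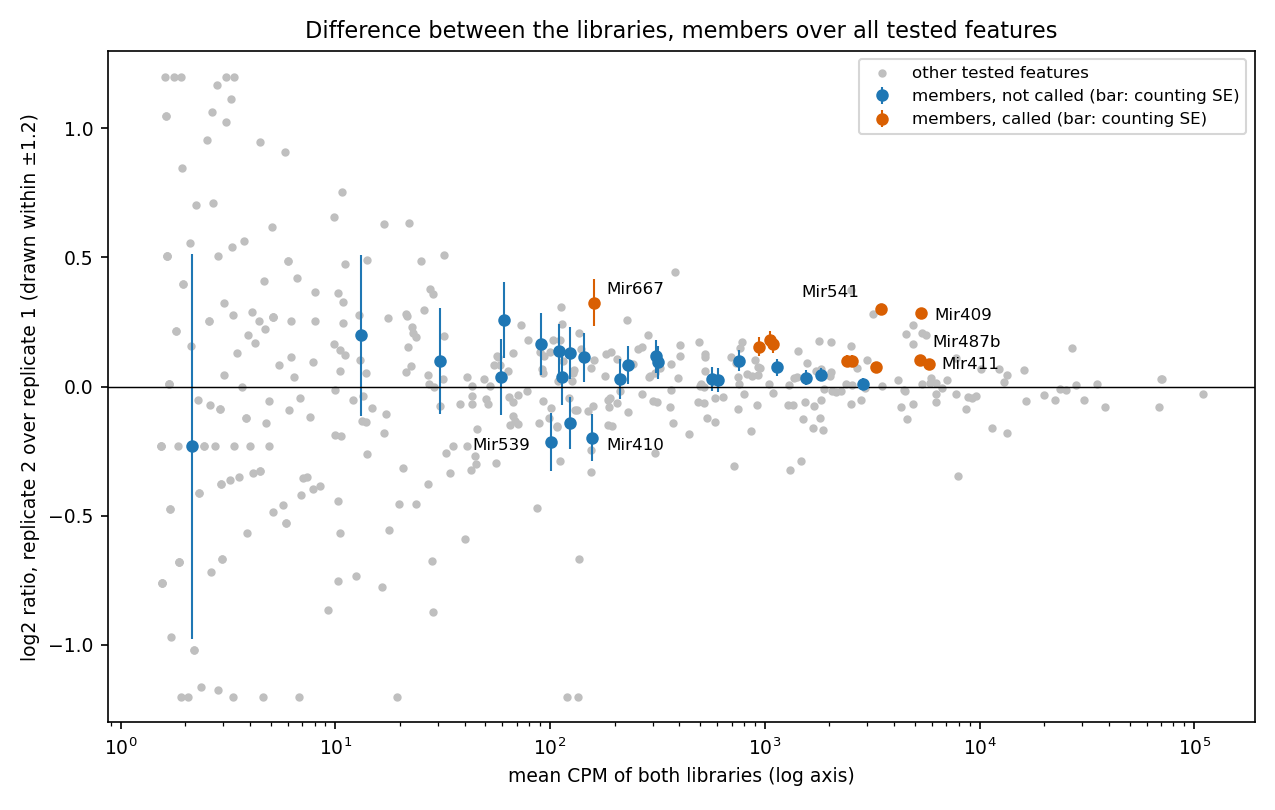
Log2 ratio of replicate 2 over replicate 1 against mean CPM for the 440 tested features, with the 35 tested members in colour and their counting SE as bars; ratios beyond ±1.2 are drawn at that limit. Mir541 and Mir409 lie near 0.3 at high CPM with short bars, Mir411 and Mir487b near 0.1, and Mir410 and Mir539 below 0.

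Mesenchyme and epithelium markers moved between the libraries too, and the part of cell type markers in the members' differences was not tested. Over all 440 features tested, 20% were called, 10% each way. Markers tested were 12 for mesenchyme, 10 for epithelium, 5 each for neural, muscle and blood, and 1 for liver. With 5 tested, 1 call for muscle or for blood equals that 20%. All 12 limb mesenchyme markers were detected, at 18.4% of counts in replicate 1 and 17.7% in replicate 2, with 1 called higher and 6 lower. All 10 epithelial markers were detected, at 1.77% and 2.07%, with 7 called higher and 0 lower. Neural markers, relevant because the cluster is known from brain, held 0.0359% and 0.0366%, with 4 of 9 listed markers detected. Mir9-2, Mir124a-1, Mir124a-2 and Mir124a-3 were at 0; their mature miRNAs are made from several gene copies. Of the muscle list 2 of 8 listed markers were detected, at 0.0588% and 0.0577% of counts, with 1 called lower (Mir208b, 30.5 and 8.48 CPM) and 0 higher. Mir1a-1, Mir133a-1 and Mir133a-2 were at 0 and Mir1a-2 had no entry, and their mature miRNAs too are made from more than 1 gene copy. Of the blood list 4 of 6 listed markers were detected, at 0.1005% and 0.1179%, with 1 called higher (Mir451a, 323 and 440 CPM) and 0 lower. These marker lists hold own-strand counts only, and Mir142 of the blood list had no entry. The opposite-strand column over Mir142b, left out of the list, held 614 and 559 CPM and was called lower, at a log2 ratio of -0.14. No neural marker was called, and Mir122 of liver stood at 21.2 and 14.4 CPM.

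Compared with the proximal miRNAs of the same domain and with Mir17-92, the cluster was made up of more hairpins, and its highest one held a smaller share of the sum but stood further above the median. Mir411 held 13.5% of the cluster's counts. Mir431 held 35.8% of the proximal list (12 of 13 listed genes detected, 4912 CPM for Mir431) and Mir17 held 61.1% of Mir17-92 (6 of 6 detected, 70216 CPM for Mir17). Of the 16 proximal genes chosen, Mir3070-1, Mir3070-2 and Mir136 had no entry under these names. An entry named Mir3070a, at 4.97 CPM in replicate 1 and 3.96 CPM in replicate 2, was not part of the list. Both lists hold own-strand counts only, while the cluster includes members read from the opposite-strand column. The SD of log2 CPM over detected hairpins was 2.35 in the cluster, 1.65 in the proximal list and 4.32 in Mir17-92, with median levels of 444, 775 and 9641 CPM. The highest hairpin stood 13.0-fold above the median in the cluster, 6.34-fold in the proximal list and 7.28-fold in Mir17-92. A share of the sum falls as hairpins are added, and the highest value over the median tends to rise. The groups hold 34, 12 and 6 detected hairpins, so neither measure is free of group size. In Mir17-92 the low values were those of Mir19a, at 137 and 129 CPM, and Mir19b-1, at 43.1 and 43.2 CPM, the latter with a second gene copy elsewhere. In the proximal list the median log2 ratio of replicate 2 over replicate 1 was 0.10, with 3 of 12 tested genes called higher and 0 lower, beside 10% of all features each way. In Mir17-92 the median was -0.01, with 1 gene called each way. These groups were set side by side without a test of their difference.

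**Figure D4:**
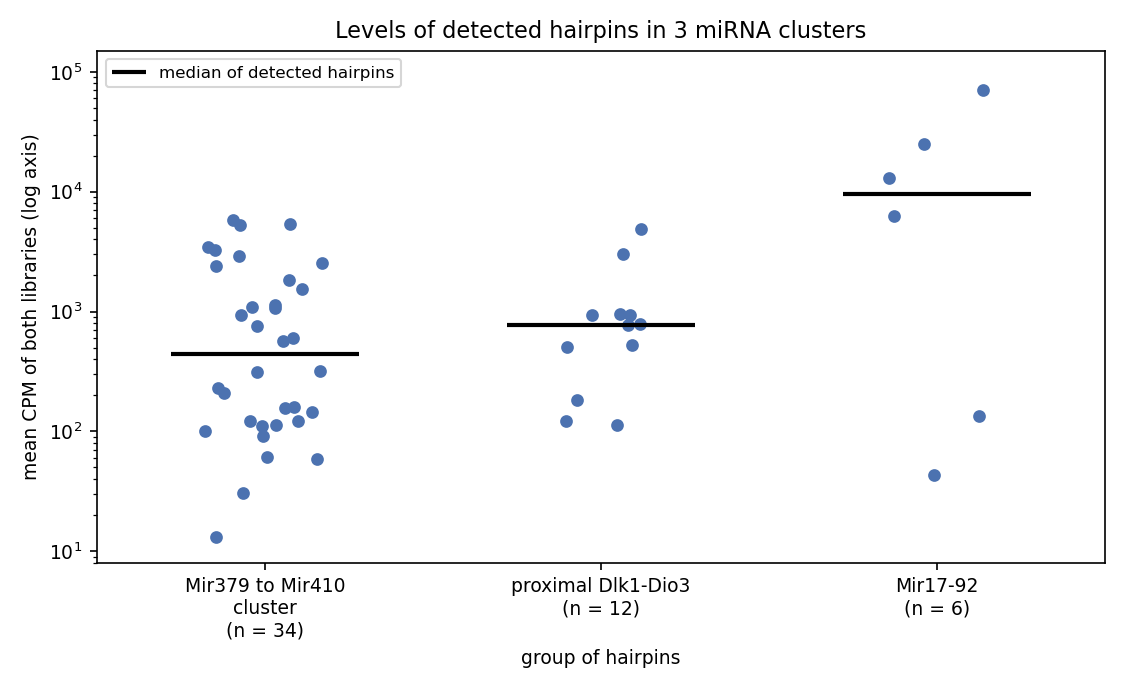
Mean CPM of both libraries on a log axis for each detected hairpin of the Mir379 to Mir410 cluster, the proximal Dlk1-Dio3 list and Mir17-92, with a bar at the median. The cluster's 34 hairpins fill the range from 13.2 to 5789 CPM around a median of 444, while 2 of the 6 hairpins of Mir17-92 lie far below the other 4.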

How the data were processed

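The authors deposited 1 table per library with raw counts of reads per miRNA gene, not normalized; per the deposited text files the assembly is mm10 and the annotation GENCODE M4. Which aligner and counter were used, and how, is not given in these sources. Reads outside genes stayed out of totals: unmapped 23.6 and 23.5% of reads, multimapping 24.7 and 23.4%, and no feature 6.45 and 5.39%. Column 3 was read as the listed gene's strand and column 4 as the opposite one, from the values. Gene identifiers were looked up in GENCODE M21 (also mm10) for positions and hairpins; 79 of 1973 genes had no match and held 4 and 1 counts. The denominator of CPM was both columns. With 1 group, the edgeR quasi-likelihood test had no contrast, so libraries were compared by a binomial test (prior count 0.5 in ratios, threshold 0.05). That test was run on simulated data drawn with counting error only. Among 446 tested features it recovered 57.6% of 99 changed 1.2-fold and 64.5% of 93 changed 2-fold. It recovered all 47 and 31 of these with 1000 or more simulated counts. Its recovery under a wider spread between libraries was not tested. Members, lists and tests were chosen with earlier results of these data known. Full values are given for the 12 highest members, the opposite-strand members, Mir379, Mir410 and members called. Alternatives covered denominator, detection, scaling, filter, prior count, test and single libraries. Tools were edgeR 4.0.16 (TMM), DESeq2 1.42.0, R 4.3.3, Python 3.11.15, scipy 1.17.1 and ViennaRNA 2.7.2.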

Additional observations from a re-analysis of the deposited data

Results flagged for a closer look

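One signal lay in counts that belong to no member. Mir299b, the minus-strand gene across from Mir299a, had 9 counts on its own strand in replicate 1 and 16 in replicate 2, or 2.98 and 4.52 CPM, above the 0.994 and 0.848 CPM that a count of 0 allows. Among the 440 features of the library comparison its log2 ratio was 0.57 and it was not called (exact binomial test, adjusted p = 0.676). Mir299a had 4631 and 5566 counts, and reads inside its paired stretch of 21 bases fit both strands. Whether the counts of Mir299b are such reads was not tested. On their own strand, Gm25750, Gm25252 and Gm24321 had 0 counts in both libraries.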

How the results depend on the processing

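The number of detected members stayed between 28 and 35 at detection levels of 1 and 100 CPM, and was 34 in each library alone. The share of the cluster, 4.29%, was 2.00% of all reads in the files, 3.28% on sense counts only, without the 4 members read from the opposite strand, and 3.14% without members that share a 20-base stretch; single libraries gave 4.10 to 4.48%. Mir411 stood 13.0-fold above the median detected member, and 12.6-fold per hairpin length. The 11 members called, all higher in replicate 2, became 6 and 2 with the overdispersed tests on the median and mean squared deviation, which widen the error by construction, and stayed at 11 or 12 under the scaling and filter alternatives. The median log2 ratio stayed between 0.09 and 0.10. Spearman's rho of level with position was -0.110 without the 4 opposite-strand members, -0.0888 without shared-stretch members, -0.119 with all members counted in both libraries, and -0.109 to -0.107 in single libraries. The neighbour difference was 2.34 log2 units without shared-stretch members and 2.29 with all counted members. Mir379 and Mir411 held 21.2% of the cluster, but 10.5% without shared-stretch members, which leaves out Mir411. The SD of log2 CPM was 2.66 with all counted members. The setting without Mir409 and Mir541 was chosen after seeing the data. No paired analysis was possible because the series holds 1 group.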

Other observations

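Some hairpins of the cluster share short motifs, which the choice of members by position did not use; most hairpins lack them. The letters UACUUG, searched at any position on the hairpin strand only and chosen after the sequences had been read, occurred in 10 of the 38 hairpins (26.3%) and in 41 of the 2164 other annotated mouse miRNA hairpins (1.89%). AGUAUC occurred in 6 of 38 (15.8%) and in 35 of 2164 (1.62%). Both were found in Mir411, Mir494, Mir487b and Mir369, and in 1 other hairpin of the genome annotation. These 4 are printed with both motifs in capitals, and in them 1 motif lies near each end.
Mir411: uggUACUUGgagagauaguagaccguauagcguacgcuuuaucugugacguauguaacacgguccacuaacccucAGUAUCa
Mir494: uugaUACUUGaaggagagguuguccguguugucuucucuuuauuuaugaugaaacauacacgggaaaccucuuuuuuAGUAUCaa
Mir487b: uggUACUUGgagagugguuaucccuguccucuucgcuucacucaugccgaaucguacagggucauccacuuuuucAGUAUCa
Mir369: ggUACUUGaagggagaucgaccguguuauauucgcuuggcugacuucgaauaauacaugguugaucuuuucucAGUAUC
These 4 hairpins lie along the whole cluster and had mean levels of 5789, 604, 5294 and 2407 CPM. The 9 detected members with UACUUG had a median of 761 CPM and the detected members without it 230 CPM, a description of these libraries with no test.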
